A study of Mus musculus with 3 samples.

Results

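Tcf1 binding sites inside long noncoding RNA (lncRNA) genes were examined in the peak lists of 2 types of mouse spleen CD4 T cell. A peak belonged here if its midpoint lay between the start and the end of a gene that the RefSeq annotation of the mm10 build (GRCm38.p6) calls lncRNA, on chromosomes 1 to 19. This took 461 of 4462 peaks of conventional CD4 T cells and 361 of 3290 peaks of regulatory T (Treg) cells, or 822 of 7752 peaks on these chromosomes in 2 of the study's 3 libraries. Both cell types came from Foxp3-Cre-GFP mice aged 8 to 10 weeks, which carry an allele that marks Foxp3-expressing cells with green fluorescent protein (GFP), and both are labelled wild type. Conventional cells were sorted as TCRb+ CD4+ CD25- and negative for Foxp3-Cre-GFP, and Treg cells as TCRb+ CD4+ CD25+ and positive for it. One label field calls the first group effector cells, while its title calls them conventional, and the sort did not separate naive from activated cells by any marker other than CD25. A library of Tcf1-deficient CD4 T cells (CD4-Cre+ Tcf1 fl/fl) is not analysed here. Whether animals were pooled was not stated in the labels. Chromatin was immunoprecipitated with an antiserum against Tcf1 and sequenced (ChIP-seq). With 1 library per cell type, no test between the cell types was possible. The lists hold positions alone, so the depth is unknown, and neither the cells' markers nor the level of any RNA could be checked.

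Tcf1 (gene Tcf7) is a transcription factor of the TCF/LEF family, which binds DNA through an HMG box and pairs with beta-catenin when Wnt signalling is active. In T cells it is known for its part in thymic development, in the upkeep of naive and memory cells and in the differentiation of follicular helper cells. lncRNAs are transcripts without a long open reading frame. Some act in the nucleus on chromatin or nuclear bodies, some serve as carriers of small nucleolar RNAs, and many begin beside a coding gene's start and are read in the opposite direction. Few of the genes described below have a known function in T cells.

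The DNA under a peak is not printed here, since no genome sequence was used. RefSeq start windows, which run from 250 bases before to 50 bases after a gene's start, show DNA at those peaks that reach one. Such a window of the host gene was overlapped by 99 of 461 conventional peaks (21.5%) and 70 of 361 Treg peaks (19.4%). The windows and their motif shares describe these peaks alone. The 6 windows below lie under or partly under a peak and outside coding genes. They stand for windows with and without the TCF/LEF heptamers CTTTGAA and CTTTGAT, which were searched on both strands, and capitals mark a match. The first 3 hold a match. Windows are given 5′ to 3′ on the lncRNA's own strand, in the GRCm38.p6 build. 4930555B11Rik (chr2:57181581-57181880, plus strand) lay under peaks of 882 bp (conventional) and 541 bp (Treg), and its match begins at base -39 relative to the start. Gm13982 (chr2:117417648-117417947, minus strand) lay partly under peaks of 657 bp and 500 bp, which end at 117417826 and 117417815. Its match begins at base -228, in the part of the window that neither peak reached. Gm41386 (chr15:93712706-93713005, minus strand) lay under a conventional peak of 633 bp and a Treg peak of 578 bp, and its match begins at base -47. Both midpoints lay in Gm30339, which overlaps Gm41386 on the other strand, and the Treg midpoint lay outside Gm41386. The last 3 windows hold no match and are shown for the genes beside them. Chaserr (chr7:73558346-73558645, minus strand) lies beside Chd2, Gm46298 (chr11:108910910-108911209, minus strand) beside Axin2, and Gm16225 (chr4:135120327-135120626, minus strand) beside Runx3.
4930555B11Rik: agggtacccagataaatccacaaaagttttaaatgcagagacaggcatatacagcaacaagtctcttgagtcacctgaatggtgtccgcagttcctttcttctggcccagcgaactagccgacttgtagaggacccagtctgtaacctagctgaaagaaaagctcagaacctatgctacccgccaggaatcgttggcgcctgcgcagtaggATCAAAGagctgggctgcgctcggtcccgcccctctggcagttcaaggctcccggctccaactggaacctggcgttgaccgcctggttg
Gm13982: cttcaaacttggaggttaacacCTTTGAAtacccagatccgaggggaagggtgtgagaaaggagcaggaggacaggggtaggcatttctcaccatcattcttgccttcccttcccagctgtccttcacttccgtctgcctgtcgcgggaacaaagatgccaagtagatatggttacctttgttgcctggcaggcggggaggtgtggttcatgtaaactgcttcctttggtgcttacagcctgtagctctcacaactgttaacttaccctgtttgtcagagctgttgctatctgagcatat
Gm41386: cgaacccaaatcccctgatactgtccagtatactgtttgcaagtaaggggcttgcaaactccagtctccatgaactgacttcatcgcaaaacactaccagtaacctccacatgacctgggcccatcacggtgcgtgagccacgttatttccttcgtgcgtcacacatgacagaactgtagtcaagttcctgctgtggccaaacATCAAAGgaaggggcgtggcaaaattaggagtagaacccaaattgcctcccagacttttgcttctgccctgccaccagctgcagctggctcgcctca
Chaserr: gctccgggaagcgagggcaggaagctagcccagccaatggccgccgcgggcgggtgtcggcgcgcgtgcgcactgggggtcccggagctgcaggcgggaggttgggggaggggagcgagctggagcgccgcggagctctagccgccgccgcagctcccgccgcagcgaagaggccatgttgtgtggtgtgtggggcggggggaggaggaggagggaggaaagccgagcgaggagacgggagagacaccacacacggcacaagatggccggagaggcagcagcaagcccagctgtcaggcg
Gm46298: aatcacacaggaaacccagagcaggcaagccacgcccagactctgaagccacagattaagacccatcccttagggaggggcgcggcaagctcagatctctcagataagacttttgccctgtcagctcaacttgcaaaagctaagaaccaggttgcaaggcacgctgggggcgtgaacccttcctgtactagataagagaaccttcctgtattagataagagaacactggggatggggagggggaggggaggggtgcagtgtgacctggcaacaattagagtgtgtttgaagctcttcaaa
Gm16225: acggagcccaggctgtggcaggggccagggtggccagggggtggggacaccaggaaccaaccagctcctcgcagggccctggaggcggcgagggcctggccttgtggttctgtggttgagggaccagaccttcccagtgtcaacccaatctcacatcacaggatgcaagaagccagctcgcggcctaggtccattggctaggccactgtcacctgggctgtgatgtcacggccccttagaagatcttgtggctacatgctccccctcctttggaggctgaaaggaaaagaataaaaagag

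Among lncRNA start windows that a conventional peak inside the same gene overlapped, 19 of 121 (15.7%, 95% interval 9.73% to 23.4%) held CTTTGAA or CTTTGAT. Under Treg peaks inside the same gene, 9 of 79 windows did (11.4%, 5.34% to 20.5%). Of the 38 windows under such peaks of both lists, 9 did (23.7%, 11.4% to 40.2%). The Gm41386 window printed above is not among the 38, since the midpoint of its Treg peak lay outside that gene. A match was counted anywhere in a window, also where no peak reached it, as in Gm13982. All intervals here are exact Clopper-Pearson intervals that cover counting error only. For comparison, 10.6% of the 11311 lncRNA windows in the table and 8.64% of all 31396 windows held one. The intervals under the conventional peaks and under the Treg peaks include 10.6%, and the interval under both begins slightly above it. Some genes have more than 1 window: the 121, 79 and 38 windows came from 100, 70 and 32 genes. Windows of the same gene are not independent, and the intervals do not allow for this. CCGGAA, a core that ETS family factors bind, was in 31 of 121 windows under conventional peaks (25.6%) and in 24 of 79 under Treg peaks (30.4%), against 7.94% of lncRNA windows and 15.1% of all windows. TGTGGT, the RUNX core, was in 21.5% and 13.9% of windows under conventional and Treg peaks, against 20.1% of lncRNA windows and 16.7% of all. CCAAT, the box of the NFY complex, was in 28.1% and 32.9%, against 35.8% of lncRNA windows and 37.3% of all. The cyclic AMP response element TGACGTCA was in 5 of 121 windows under conventional peaks (4.13%, 1.36% to 9.38%) and 1 of 79 under Treg peaks (1.27%), against 0.99% of lncRNA windows and 1.83% of all. Each motif was searched on both strands, and matches can share letters. Base composition moved with these shares: the median GC content was 64.3% under conventional peaks and 66.7% under Treg peaks, against 48.3% for lncRNA windows under neither, and its part in the shares was not tested. A match describes the letters of the window and is not a measured binding site.

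Members made up 10.3% of the conventional list (9.45% to 11.3%) and 11.0% of the Treg list (9.92% to 12.1%), and these intervals overlap. They lay in 428 and 333 lncRNA genes, which is 3.45% and 2.68% of the 12408 such genes on these chromosomes. Per megabase of lncRNA span there were 2.15 conventional and 1.68 Treg peaks, and per megabase of coding span 2.71 and 1.83. Several peaks in a gene were uncommon: 33 lncRNA genes held 2 or more conventional peaks and 21 held 2 or more Treg peaks. The lncRNA genes with a peak in either list numbered 558, and 203 had a peak in both, which is 47.4% of the conventional genes and 61.0% of the Treg genes. The same share for coding genes is not given here, so these values are a description. In 199 of these 203 genes at least 1 pair of peaks overlapped. Longer genes can catch more peaks: the median length was 12159.5 bp for genes with a peak and 8393.5 bp for all lncRNA genes.

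Most host genes are known by a model number alone. Of 9879 lncRNA genes with a Gm number, conventional peaks fell in 292 (2.96%) and Treg peaks in 228 (2.31%). Of 1750 named after a RIKEN clone, these numbers were 105 (6.0%) and 74 (4.23%). Genes named as the opposite-strand, antisense or intronic transcript of a coding gene numbered 214, with 10 holding a conventional and 12 a Treg peak, 7 of them both. Of 18 small nucleolar RNA host genes of the Snhg family, 2 had a conventional and 1 a Treg peak, and no microRNA host gene of 14 had either. The 3221 genes with a curated RefSeq transcript had a peak in 5.50% (conventional) and 4.38% (Treg) of cases, against 2.73% and 2.09% of the 9187 genes with predicted transcripts alone. Peaks inside lncRNA genes ran from 6 to 48 per chromosome in the conventional list and from 8 to 32 in the Treg list. They were fewest on chromosome 18 and most numerous on chromosome 11 in both. The same held for all peaks, with 111 conventional and 95 Treg peaks on chromosome 18 and 429 and 280 on chromosome 11.

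Of the 461 conventional members, 221 shared 1 bp or more with a Treg peak (47.9%, 43.3% to 52.6%). The share over the whole conventional list was 42.7%, and over the 4001 conventional peaks outside lncRNA genes 42.1% (40.6% to 43.6%). Of the 361 Treg members, 224 overlapped a conventional peak (62.0%, 56.8% to 67.1%), beside 57.8% over the whole Treg list and 57.3% (55.5% to 59.1%) over its other 2929 peaks. The Treg members' interval includes the share of the whole list, so their overlap is not set apart from it. The conventional members' interval begins slightly above it. Of the peaks with no overlap, 2 conventional and 5 Treg members had the midpoint of a peak of the other list within 1000 bp, leaving 238 and 132 members with no counterpart by either measure. Conventional members that also lay inside a coding gene overlapped a Treg peak in 79 of 152 cases (52.0%, 43.7% to 60.1%) and those outside in 142 of 309 (46.0%, 40.3% to 51.7%). For Treg members the counts were 80 of 118 (67.8%, 58.6% to 76.1%) and 144 of 243 (59.3%, 52.8% to 65.5%), so in both lists the inside and outside intervals overlap. Hosts with a curated transcript held 200 of the conventional members, of which 108 (54.0%, 46.8% to 61.1%) were shared. In predicted genes 113 of 261 were (43.3%, 37.2% to 49.5%). In the Treg list the counts were 106 of 161 (65.8%, 58.0% to 73.1%) and 118 of 200 (59.0%, 51.8% to 65.9%). The curated and predicted intervals overlap in both lists.

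Members that were shared had the higher median width in each list. The median conventional member was 436 bp wide (quartiles 351 and 583 bp, extremes 279 and 1978 bp), and the median of the other conventional peaks was 428 bp. Shared conventional members had a median of 507 bp and unshared ones of 385.5 bp. The median Treg member was 366 bp wide (quartiles 299 and 489 bp, extremes 241 and 2468 bp), and that of the other Treg peaks 365 bp, with 415 bp for shared and 326 bp for unshared members. Width thus hardly differed between peaks inside and outside lncRNA genes, and the shared and unshared widths overlapped over most of their range. At least 1000 bp wide were 16 conventional and 11 Treg members.

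**Figure D1:**
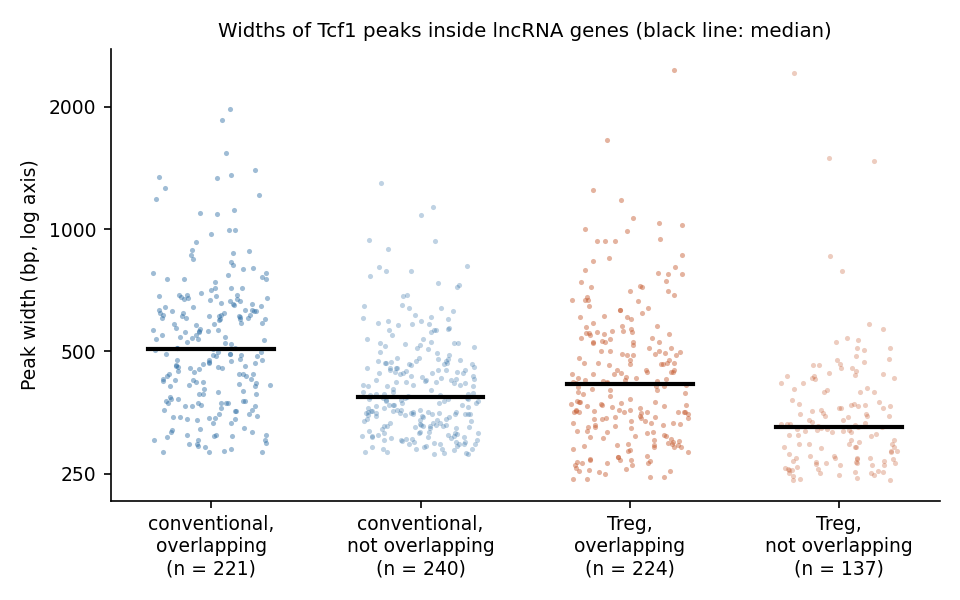
Width of each Tcf1 peak inside a lncRNA gene (vertical log axis, bp), by list and by whether it overlaps a peak of the other list; each point is a peak and the black lines are medians. The medians are 507 and 385.5 bp for overlapping and other conventional peaks and 415 and 326 bp for Treg peaks, with wide overlap between the groups.

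When each list was split by width into 5 classes of equal size, the share of conventional members that overlapped a Treg peak went from 28.2% in the narrowest class through 33.7%, 42.0% and 52.9% to 76.9% (67.8% to 84.4%) in the widest. Conventional peaks outside lncRNA genes went from 21.1% to 64.3% (60.9% to 67.7%) over the same classes. In the widest class 83 of 108 members and 505 of 785 other peaks were shared, and the 2 intervals touch at 67.8% and 67.7% without overlapping. Treg members went from 39.1% to 85.2% (75.6% to 92.1%), and the other Treg peaks from 33.3% to 83.0%, which lies inside that interval.

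**Figure D2:**
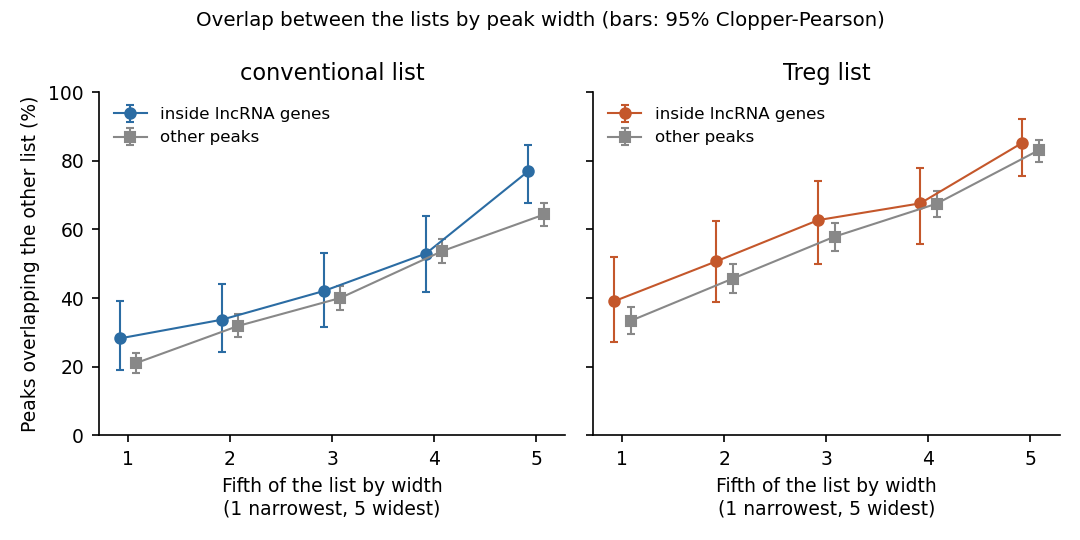
Share of peaks that overlap the other list (vertical axis, percent) by width class (horizontal axis, 1 narrowest to 5 widest), for peaks inside lncRNA genes (coloured circles) and other peaks (grey squares); bars are 95% Clopper-Pearson intervals. Both kinds of peak rise with width, from 28.2% to 76.9% for conventional members and from 39.1% to 85.2% for Treg members.

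The shared members formed 213 pairs with a member in each list. The midpoints of a pair lay a median of 59 bp apart (interquartile range 25 to 114 bp). The conventional peak was the wider one in 150 pairs and the Treg peak in 63, with median widths of 507 and 413 bp. Since conventional peaks are wider throughout the list (medians of 428 and 365 bp outside lncRNA genes), this order was also that of the whole lists. Widths within pairs followed each other loosely (Pearson r 0.35, Spearman rho 0.44 across the 213 pairs, which share a library on each side and are not independent samples). A further 10 conventional and 11 Treg members met only a peak whose own midpoint fell outside lncRNA genes.

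**Figure D3:**
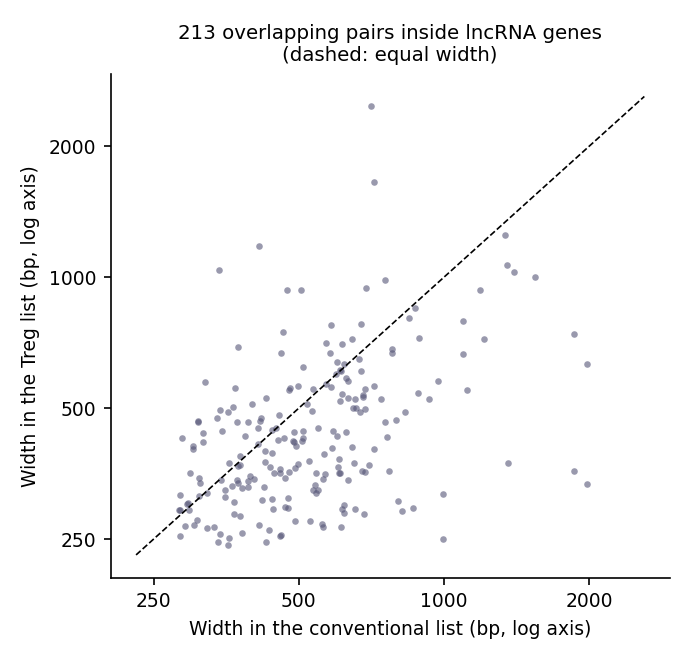
Widths of the 213 overlapping pairs inside lncRNA genes, with the conventional peak on the horizontal and the Treg peak on the vertical log axis (bp); each point is a pair and the dashed line marks equal width. The conventional peak is the wider one in 150 pairs, and the points spread widely around the line.

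Many members sat at an end of their host gene. For the 369 conventional and 280 Treg members whose host has a known strand, the midpoint lay within 1 kb of the host's start in 154 (41.7%, 36.7% to 47.0%) and 114 (40.7%, 34.9% to 46.7%). Counting either end, and all members, 232 conventional (50.3%) and 167 Treg (46.3%) lay within 1 kb of an end. In a short host, such as Gm36457 of 712 bp, every midpoint lies within 1 kb of both ends. The share that host lengths alone would give was not computed, so a preference for host ends was not tested. Peaks near the start were shared in 75 of 154 conventional cases (48.7%) and peaks farther in were shared in 97 of 215 (45.1%). In the Treg list the counts were 76 of 114 (66.7%) and 100 of 166 (60.2%). At the edge of the rule, 57 conventional and 46 Treg members had their midpoint within 100 bp of a host's end, and 65 and 47 peaks lay within 100 bp outside a lncRNA gene.

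Many lncRNA genes lie inside or across coding genes. By this measure 152 of 461 conventional members (33.0%, 28.7% to 37.5%) and 118 of 361 Treg members (32.7%, 27.9% to 37.8%) had their midpoint in a coding span. Over the whole lists the shares were 59.7% and 54.6%, and over the peaks outside lncRNA genes 62.7% and 57.3%. RefSeq lncRNA spans cover 214 Mb and coding spans 984 Mb of these chromosomes, and 20.1% of the lncRNA span lies inside coding spans. Outside coding spans, 137 of 309 conventional members (44.3%, 38.7% to 50.1%) and 97 of 243 Treg members (39.9%, 33.7% to 46.4%) had a coding gene within 5 kb. The whole lists had 57.9% and 48.6%, and the peaks outside lncRNA genes 60.7% (58.2% to 63.2%) and 50.3% (47.5% to 53.1%). In both lists the members' interval lies below that of the other peaks. At the far end, 35 conventional members (7.59%) and 33 Treg members (9.14%) lay more than 100 kb from any coding gene, against 2.55% and 5.53% of other peaks.

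**Figure D4:**
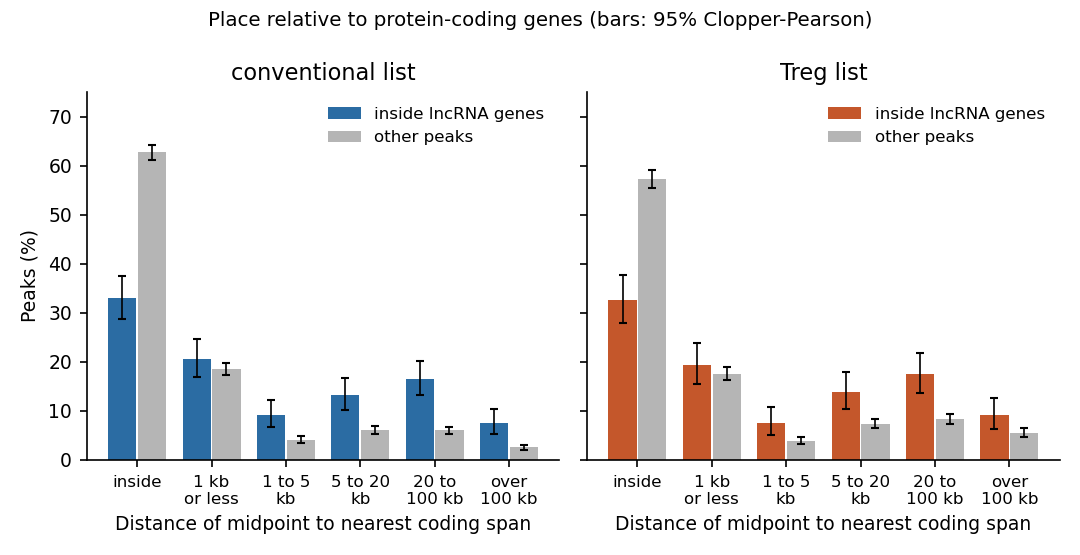
Share of peaks (vertical axis, percent) by distance of the midpoint to the nearest coding gene span (horizontal classes, from inside to over 100 kb), for peaks inside lncRNA genes (coloured bars) and other peaks (grey bars); error bars are 95% Clopper-Pearson intervals. Inside coding genes lie 33.0% of conventional and 32.7% of Treg members against 62.7% and 57.3% of other peaks.

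Where a member lay near a coding gene, its host lncRNA was mostly read in the other direction. Of 97 conventional members outside coding spans, within 5 kb of one and with both strands known, 92 (94.8%) had host and coding gene on opposite strands, and in 80 (82.5%) the 2 starts lay within 5 kb of each other. Divergent pairs, whose starts face away from each other without overlapping, made up 33 of these 97, with 15 of the 33 peaks shared. Pairs that overlap at their starts made up 47, with 23 peaks shared. In the Treg list 66 of 69 such members (95.7%) had opposite strands, 29 as divergent and 30 as overlapping pairs. Inside coding genes 87 of 93 conventional members (93.5%) and 67 of 74 Treg members (90.5%) had a host on the opposite strand. That is also the usual layout of the annotation where strands are known. Of 2834 lncRNA genes of known strand that overlap a coding gene of known strand, 2568 (90.6%) lie on the opposite strand alone. No such background was counted for all lncRNA genes within 5 kb of a coding gene. Whether the layout outside coding spans is particular to these peaks was therefore not tested. Farther than 5 kb from a coding gene, 57 of 111 conventional members (51.4%) and 43 of 92 Treg members (46.7%) had opposite strands.

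A peak was assigned to the coding gene that held it or else to the nearest one within 100 kb. In this way 391 coding genes (1.89% of 20661) stood beside a conventional member, 296 (1.43%) beside a Treg member, and 186 beside both. With all peaks of each list assigned in this way, 3516 coding genes (17.0%) had a conventional and 2640 (12.8%) a Treg peak. Of 284 coding genes in 13 lists, 23 (8.10%) stood beside a conventional member and 17 (5.99%) beside a Treg member. The lists mostly hold T cell genes and were chosen with earlier results of these data known, so these shares are a description. None of the 15 B cell, 15 liver or 14 neuron genes on these chromosomes had such a peak in either list. Of the 16 myeloid genes, 2 stood beside a conventional member, Tyrobp at 19180 bp and Cebpb at 87360 bp from the peak. Tyrobp also stood beside a Treg member of 392 bp, which overlapped the conventional one, and was the 1 myeloid gene with a Treg member.

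Of 24 genes of naive and memory T cells, 4 stood beside a conventional and 3 beside a Treg member. Tcf7, which encodes Tcf1 itself, had the most. Gm30217 (chr11:52307484-52318720), a lncRNA between Tcf7 and Vdac1, held 3 conventional peaks of 377, 1186 and 357 bp and 3 Treg peaks of 370, 934 and 489 bp. Each peak overlapped one of the other list. The middle conventional peak, chr11:52313680-52314865, was the widest of the 3, and so was its Treg counterpart. The peaks lay 26192, 30889 and 35192 bp from the Tcf7 span. Lef1, which encodes another factor of the family, stood beside Gm36603, with a conventional peak of 889 bp (chr3:131105615-131106503) and a Treg peak of 725 bp (chr3:131105716-131106440) about 4238 bp away. Bach2, a repressor that holds back effector genes, stood 74112 bp from a shared pair of 476 and 550 bp in Gm42266. Ccr7, the homing receptor for lymph nodes, stood 15985 bp from an unshared conventional peak of 419 bp in Gm32249.

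Of 31 Wnt pathway genes, 4 stood beside members of both lists: Tcf7, Lef1, Axin2 and Gsk3b. Axin2 encodes a scaffold of the beta-catenin destruction complex and is a widely used TCF/LEF target. It stood 61094 bp from a shared pair of 448 and 451 bp in Gm36876. Nearer to it, at 6946 bp, lay a Treg peak of 777 bp in Gm46298 (chr11:108910494-108911270), over the start window printed above. Its conventional counterpart of 692 bp had its midpoint outside the lncRNA. Gsk3b, the kinase of the same complex, had a conventional peak of 341 bp and a Treg peak of 1037 bp beside it in BC031361. The pair lay near the start of this minus-strand lncRNA, with the conventional midpoint 20 bp from the Gsk3b span.

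Of 29 genes of T cell receptor signalling, 5 stood beside a conventional and 4 beside a Treg member, and at 4 of the 5 genes the peaks were shared. Cd247, the zeta chain of the receptor complex, held a pair of 467 and 346 bp in Gm32999. Cd5, which dampens receptor signals, stood 24772 bp from a pair of 351 and 325 bp in A430093F15Rik. In both pairs the conventional peak was the wider one. Lcp2, which encodes the adaptor SLP-76, stood 3854 bp from a pair of 373 and 465 bp.

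Of 32 genes of helper cell lineages, 3 stood beside a conventional and 2 beside a Treg member. Bcl6, the repressor that directs follicular helper cells, held a shared pair of 488 bp (chr16:23988568-23989055) and 418 bp in Gm31527, and an unshared Treg peak of 267 bp lay 2546 bp outside it. Stat3 faced Gm46295, where a conventional peak of 690 bp (chr11:100939441-100940130) and a Treg peak of 944 bp (chr11:100939127-100940070) had midpoints 191 and 4 bp from the Stat3 span. Runx3, a factor of cytotoxic and type 1 helper cells, stood 327 bp from a conventional peak of 628 bp (chr4:135120005-135120632) over the start of Gm16225. A Treg peak of 450 bp overlapped it with its midpoint outside the lncRNA.

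Of 26 activation transcription factor genes, 2 stood beside a conventional and 2 beside a Treg member, with Jun beside both. Junos, the lncRNA at the start of the AP-1 gene Jun, held a conventional peak of 1357 bp (chr4:95052048-95053404) and a Treg peak of 374 bp (chr4:95052434-95052807). The Treg peak lay within the conventional one. Fos stood 18487 bp from an unshared Treg peak of 397 bp, and Nfkbia, an inhibitor of NF-kappaB, 6547 bp from an unshared conventional peak of 329 bp. Of 31 genes of Treg cells, 1 stood beside a conventional and 2 beside a Treg member. Tnfrsf18, which encodes the receptor GITR, stood about 3940 bp from a shared pair of 417 and 475 bp in Gm16008, with Tnfrsf4, which encodes OX40, on the other side at 5769 bp. Ikzf4, which encodes the Ikaros family factor Eos, held an unshared Treg peak of 789 bp in Gm26876 (chr10:128645688-128646476). Foxp3 lies on the X chromosome, outside the rule.

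The remaining lists held few such genes. Ccnd2, a D-type cyclin, stood 509 bp from a conventional peak of 507 bp in 9330179D12Rik, which overlapped a Treg peak of 421 bp. Ccne1, an E-type cyclin, stood 12990 bp from an unshared conventional peak of 449 bp. Fasl, the death ligand, stood 13862 bp from an unshared conventional peak of 445 bp, and the chemokine gene Xcl1 stood 49432 bp from one of 281 bp. At these distances a peak's assignment rests on being nearest and says nothing of which gene it serves.

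**Figure D5:**
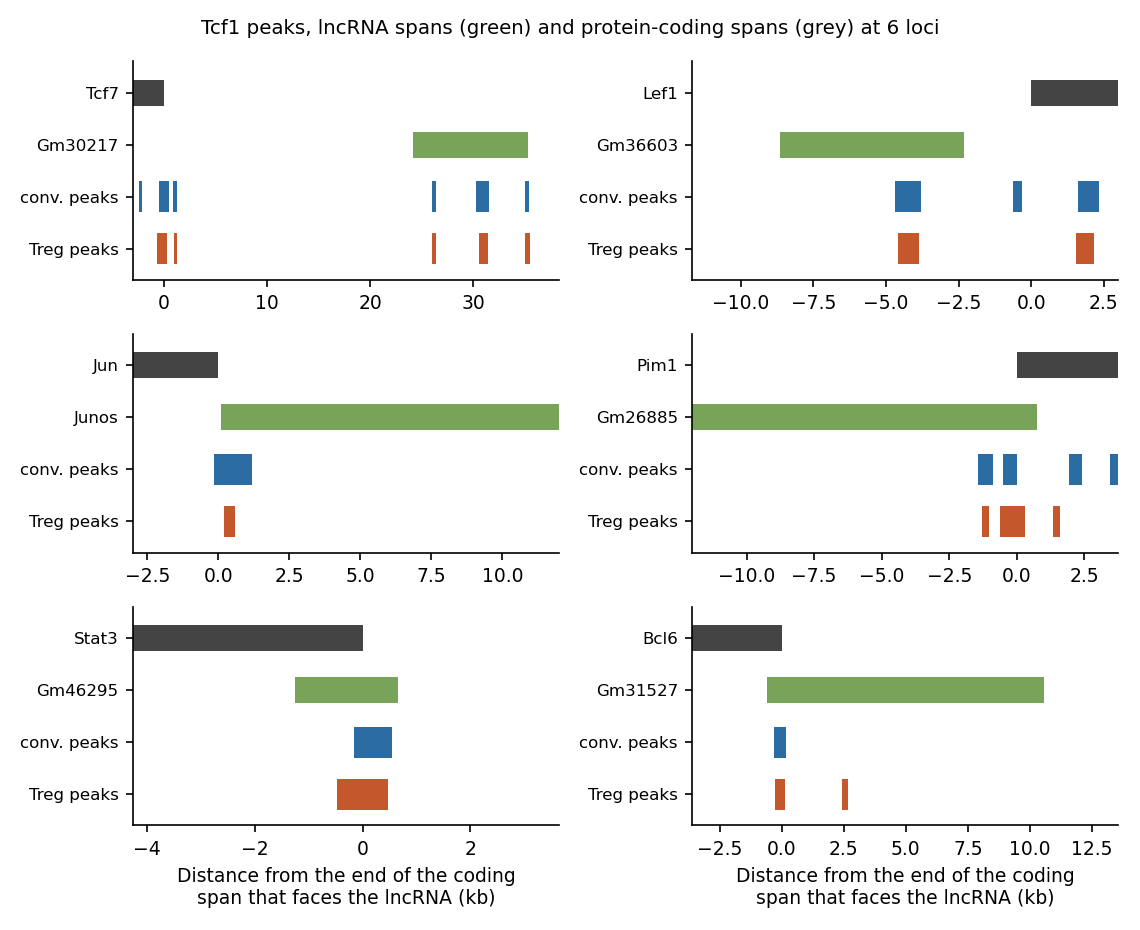
Conventional and Treg peaks (blue and orange blocks), lncRNA spans (green) and coding gene spans (grey) at 6 loci, with the horizontal axis giving the distance in kb from the end of the coding span that faces the lncRNA. Gm30217 beside Tcf7 holds 3 peaks in each list, and the conventional peak of 1357 bp at Junos spans the Treg peak of 374 bp.

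The lncRNA genes with the most peaks, both lists added, were led by Gm1604a (chr17:7855073-8108015). It held 3 conventional peaks of 570, 971 and 308 bp, all shared, and 6 Treg peaks, of which 3 were shared (567, 578 and 276 bp) and 3 were not (464, 407 and 323 bp). The peak of 971 bp (chr17:7927465-7928435) lay inside Tagap, a gene expressed in activated T cells. 5031425E22Rik beside and across Kmt2e, a chromatin regulator, held 2 conventional and 4 Treg peaks. One of the former spanned 1855 bp (chr5:23432770-23434624) and overlapped 2 Treg peaks. In Gm1604a and 5031425E22Rik the Treg list thus had more peaks than the conventional one.

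Gm26885 (chr17:29446838-29491544), a minus-strand gene whose start lies at Pim1, held 2 shared peaks in each list. Pim1 encodes a serine/threonine kinase induced by cytokines. The conventional peaks were 562 bp (chr17:29489349-29489910) and 505 bp (chr17:29490288-29490792), and the Treg peaks 266 bp (chr17:29489490-29489755) and 933 bp (chr17:29490150-29491082). The order of the widths thus differed between the lists at this locus. The nearer peaks lay 245 and 169 bp from Pim1. Gm27162 (chr9:32904069-32928966) held 2 peaks in each list, of 303 and 374 bp in conventional and 270 and 337 bp in Treg cells, with Ets1, a lymphoid ETS factor, 153178 bp or more away. 2610307P16Rik held peaks of 587 and 610 bp and of 405 and 518 bp, with the nearer 397145 bp from Sox4 on one side. In these 3 genes no peak was without a counterpart.

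A930024E05Rik held 3 conventional peaks, of which 1 was shared, and 1 Treg peak of 287 bp, near Kdm2b, a histone demethylase gene. Gm30149 near Chd2, a chromatin remodeller gene, held 3 conventional peaks and 2 Treg peaks, of which 1 in each list was shared. Chaserr, a lncRNA known to restrain Chd2, held a shared pair of 665 and 648 bp over its start (chr7:73558002-73558666 in the conventional list), 16588 bp from Chd2. 2610035D17Rik near Slc39a11 and Gm34086 beside Vps37b complete the 10, with conventional peaks of 817 and 351 bp in the first and 369 and 653 bp in the second. The last 5 of these 10 were taken by symbol from 12 genes that tied at 4 peaks, and the tied genes not taken include Snhg14, with no conventional and 4 Treg peaks.

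Of 58 named lncRNAs looked for, 49 were matched in the table, and 10 of them held a peak: 9 in the conventional list, 5 in the Treg list and 4 in both. Neat1, the scaffold of nuclear paraspeckles, held a conventional peak of 1092 bp (chr19:5844804-5845895) and a Treg peak of 791 bp (chr19:5844869-5845659) at one end of its span. Pvt1, the lncRNA beside Myc, held 2 shared pairs far inside it, at chr15:62164638-62165324 (687 bp) and chr15:62169444-62170113 (670 bp) in the conventional list, with Treg peaks of 497 and 489 bp. The nearer conventional peak lay 174620 bp from Myc. Mirt1 held 2 conventional peaks of 533 and 427 bp and 2 Treg peaks of 493 and 528 bp, all shared. Lncpint, a transcript named for its induction by p53, held 3 conventional peaks and 1 Treg peak. Of the 3, that of 414 bp was shared with a Treg peak of 270 bp, and those of 809 and 379 bp, toward its start, were not.

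Hosts of small nucleolar RNAs, of which 2 of 18 in the Snhg family held a conventional peak, had it within 1 kb of the start in the 4 cases that follow. Gas5, which hosts such RNAs and is itself unstable in growing cells, held a conventional peak of 508 bp (chr1:161034789-161035296) inside the gene, with its midpoint 441 bp from the start. Snhg1 held one of 580 bp (chr19:8723227-8723806) and Snhg17 one of 329 bp (chr2:158361333-158361661), 29 and 25 bp from their starts. Zfas1 held one of 527 bp (chr2:167062738-167063264), which also lay in Znfx1. None of these 4 overlapped a Treg peak, and a peak missing from a list does not show that the site was unbound. Dleu2, a lncRNA of the region that carries the miR-15a and miR-16-1 hairpins, held an unshared conventional peak of 352 bp. Snhg14, a long transcript of the imprinted Snrpn and Ube3a region, held 4 unshared Treg peaks of 478, 296, 317 and 264 bp over a span of chr7:59272737-60450177. Malat1, Tug1, Meg3, H19, Kcnq1ot1, Mir17hg, Mir155hg, Morrbid, Ifngas1 and Bach2os were among those without a peak.

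The widest conventional members were in 4930526I15Rik (1978 bp, chr9:124423270-124425247), 5031425E22Rik, Gm42085 (1542 bp, chr11:86757067-86758608), Gm31108 (1397 bp, chr6:143114325-143115721), Junos, 4932412D23Rik (1347 bp, chr16:42875003-42876349), Gm36584 (1336 bp, chr7:82865876-82867211) and Gm26901 (1302 bp, chr1:7397087-7398388). Of these 8 peaks, that in Gm26901 was the one with no Treg counterpart. 4932412D23Rik faces Zbtb20, a zinc finger repressor gene, 13 bp from the peak's midpoint, and its Treg peak was 1065 bp wide. Gm36584 faces Mex3b, an RNA-binding protein gene, with a Treg peak of 1249 bp. The midpoint of the peak in Gm42085 lay 270 bp from Cltc, the clathrin heavy chain gene, and its Treg peak was 1003 bp wide. A630026N12Rik, inside Gabpb1, held the next widest shared peak at 1260 bp, over a Treg peak of 446 bp. After Gm26901 the widest unshared conventional members were in Gm52552 (1136 bp, chr2:34962843-34963978), 1598 bp from Traf1, a signalling adaptor of TNF receptors, and in Gm52538 (1086 bp). Gm46412, E130307A14Rik, 2810454H06Rik, Gm34755 and Lncpint followed with widths of 942 to 809 bp.

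The widest Treg member, of 2468 bp (chr6:47743524-47745991), lay in Gm52861 with another of 1657 bp (chr6:47739164-47740820), over conventional peaks of 707 and 717 bp. 2700054A10Rik held one of 2418 bp (chr17:13550722-13553139), Gm40237 one of 1498 bp (chr4:118547216-118548713) and Gm46741 one of 1468 bp (chr2:52696525-52697992). None of these 3 overlapped a conventional peak, so width did not fix whether a single peak was shared. Gm46741 lies in Stam2, while the peak in Gm40237 lay 3044 bp from Tmem125. B330016D10Rik held a Treg peak of 1181 bp (chr4:141545901-141547081) that overlapped 2 conventional peaks. Gm36459 (860 bp), Gm26876 in Ikzf4, Gm31718 (583 and 541 bp) and Gm30192 (569 bp) held the next widest unshared Treg members.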

How the data were processed

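The data were 2 peak lists, 1 per cell type. Each deposited list has no header and holds 3 columns: chromosome, start and end. No count, height or p-value was given, so depth is unknown and width served for ranking. Bowtie2 2.3.4.1, MACS2 2.1.1, FastQC and mm10 are named, without roles, in the submitters' processing notes. The authors deposited the lists as filtered, by a rule not given in the sources used here, and whether another library entered it was not stated. A threshold that moves with depth can change peak number and width.

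Values were computed with pandas 2.3.3, numpy 2.4.6 and scipy 1.17.1 under Python 3.11.15 and drawn with matplotlib 3.10.9. Positions are printed 1-based. Gene spans and classes came from RefSeq (GRCm38.p6), and strands and sequences from RefSeq start windows where a gene had one (9291 of 12408 lncRNA genes). Exons were not used. A peak was shared at an overlap of at least 1 bp. Shares carry exact 95% Clopper-Pearson intervals, and no test was run. Scripts were tested on simulated data.

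The members and lists were chosen with earlier results of these data known. Named genes were the listed lncRNAs, the 10 lncRNA genes with most peaks, hosts of the 8 widest peaks in all and by sharing, and up to 4 listed coding neighbours per list, most peaks first. Values of some genes that this rule takes are not reported here. Windows printed came from the 8 with the widest peaks, shared first, less those on chromosome 18 or touching a coding span, a limit added later. The 6 shown were picked from these after their letters were seen. Alternatives changed the membership rule, the genes, the distances and the lists' length.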

Additional observations from a re-analysis of the deposited data

How the results depend on the processing

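Of 74 alternative values for 9 results, 54 stayed within the main interval or within 1.5 times the main count, and 20 moved. Overlap in conventional members (47.9%) was 54.0% with curated genes alone and 53.7% when both lists were cut to equal length, also with overlaps counted on the full lists, and 61.3% in the wider part of each list counted that way. In Treg members (62.0%) it was 56.6% in the wider part of each list, 53.2% at equal length and 74.2% in the wider part with full-list overlaps. Membership (10.3% conventional, 11.0% Treg) was 13.8% and 13.6% with any overlap, 8.00% and 8.72% with the whole peak inside, and 4.48% and 4.89% with curated genes. The share with a coding gene within 5 kb (44.3% and 39.9%) was 30.7% and 28.8% at 1 kb and 64.1% and 60.5% at 20 kb. Genes with peaks in both lists (203) fell to 93 with curated genes, 96 in the wider parts and 125 outside coding genes. Full-list overlaps, and leaving out 5031425E22Rik, Gm1604a and Snhg14, which hold at least 4 peaks of a list, were chosen after seeing the data. No paired analysis was possible because each cell type has 1 library. For that reason no library could be left out. Depth is unknown, so a missing peak may be an unbound site or one below the calling threshold.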

Other observations

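Outside chromosomes 1 to 19, lncRNA genes held few peaks. On the X chromosome 3 of 49 conventional and 3 of 86 Treg peaks lay in lncRNA genes, among them 3632454L22Rik in both lists, Gm39536 in the conventional and Gm42173 in the Treg list. On the Y chromosome the counts were 3 of 8 and 2 of 26, with Gm33272 in both lists.

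Some further members were picked after their values were seen, for the coding genes beside them, and stand here as values. Shared Treg peaks lay in F830010H11Rik (334 bp), 10 bp from Ezh2, the H3K27 methyltransferase gene of Polycomb complex PRC2, and in Gm12506 (833 bp), 253 bp from Klf4, a zinc finger factor gene. Their conventional counterparts were 758 and 656 bp wide. BC048644 held a shared Treg peak of 864 bp, 151 bp from Slc7a5, which encodes the light chain of an amino acid transporter of activated T cells. Unshared Treg peaks lay in Gm2479 (265 bp), 73 bp from Orai1, the pore subunit of store-operated calcium channels, in Gm51710 (289 bp) inside Smad3, and in Gm31623 (318 bp) inside the DNA methyltransferase gene Dnmt3a. An unshared conventional peak of 455 bp lay in Gm31292 inside Tgfbr2, a TGF-beta receptor gene.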
